A study of Culex pipiens pallens and Culex quinquefasciatus with 12 samples.

Results

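Hexamerins, arylphorins and larval serum proteins are the storage proteins of insect larvae. They belong to the hemocyanin superfamily, are made in the fat body of the growing larva, circulate in the haemolymph, and are taken back into the fat body before pupation, where they serve as a store of amino acids for building the adult. Arylphorins are the members rich in aromatic amino acids, and the names larval serum protein 1 and 2 come from *Drosophila*. Described here are 7 gene models of *Culex*, listed by identifier and carrying one of these names in their deposited description, of 17757 gene models that had at least 1 read. No measured value is part of the rule for the list, but the members were chosen with earlier results of these data known. A further 5 gene models carry the same kind of name and are described after them.

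The libraries came from whole larvae of *Culex pipiens pallens* (7 libraries), the northern house mosquito of East Asia, and of *Culex pipiens quinquefasciatus* (5 libraries), the southern house mosquito. In each library 30 larvae were pooled and their poly(A) RNA was sequenced. The labels name the subspecies and the larval stage only: strain, instar, age, sex, insecticide resistance level and treatment are not given. Nothing says that the pools came from separate cultures. The subspecies tests therefore set a difference against the spread between these pools, which may not be the spread between cultures. Unique reads numbered 3.88 M to 4.86 M per pallens library and 4.41 M to 5.18 M per quinquefasciatus library.

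Arylphorin subunit C223 (CPIJ009033-RA) lies on scaffold supercont3.216 from 559039 to 561278, on the plus strand. Next to it, with 4754 bases and no other gene model between them, lies a larval serum protein 2 gene (CPIJ009032-RA, 552038 to 554284, plus strand). A second scaffold, supercont3.23, holds a pair of larval serum protein 2 genes on opposite strands: CPIJ001820-RA from 441088 to 443953 (minus strand) and CPIJ001822-RA from 474291 to 476426 (plus strand). Between them lie 30337 bases with a hypothetical gene, CPIJ001821-RA, which had 0 to 12 reads per library. Arylphorin subunit alpha (CPIJ007783-RA) lies on supercont3.162 from 624455 to 626739. Hexamerin 2 beta (CPIJ009506-RA) spans 410766 to 435602 on supercont3.235, and larval serum protein 1 beta chain (CPIJ006538-RA) lies on supercont3.126 from 696059 to 698234, all on the plus strand. Listed lengths ran from 2085 to 2285 bases. The files give no exons, so the positions are those of whole gene models in the assembly with scaffolds named supercont3, whose build is not named in the labels or headers.

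Together the 7 genes took a large part of each library. Their share of all unique reads was lowest at 3.48%, at a median of 13.5% and highest at 14.6% in the pallens libraries, against 15.7%, 8.92%, 13.4%, 13.0% and 11.99% in quinquefasciatus 1 to 5. The low end came from pallens 7 (3.48%) and pallens 6 (3.97%), while the other 5 pallens libraries lay between 11.1% and 14.6%, within the quinquefasciatus range of 8.92% to 15.7%. The mean share in pallens was 10.7% ± 4.87 (SD, n = 7), against 12.6% ± 2.46 in quinquefasciatus (SD, n = 5). The difference of -1.94 percentage points was smaller than the pooled SD of 4.08, and without pallens 6 and 7 its direction turned, to 0.83 percentage points. Exact binomial 95% intervals were narrow at this depth, from 3.46% to 3.49% in pallens 7 for example, and cover counting error only. Reads per gene in a pool cannot tell fewer fat body cells from less RNA per cell.

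**Figure D1:**
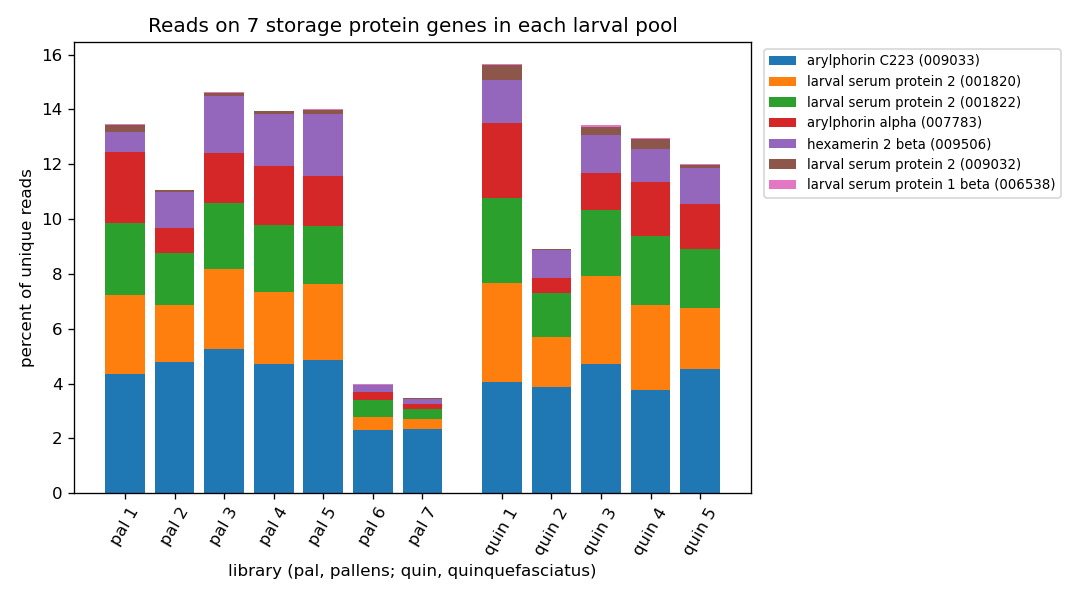
Percent of unique reads (vertical axis) on each of the 7 storage genes, stacked, in the 7 pallens and 5 quinquefasciatus libraries (horizontal axis). The stacks of pallens 6 and pallens 7 stop at 3.97% and 3.48%, and arylphorin C223 (bottom segment) makes up most of what remains there, while the other 10 stacks reach 8.92% to 15.7%.

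Arylphorin subunit C223 (CPIJ009033-RA) had the most reads of any gene model in each of the 12 libraries. It took 2.32% of reads at the lowest, 4.70% at the median and 5.27% at the highest in pallens, against 4.04%, 3.87%, 4.73%, 3.75% and 4.54% in quinquefasciatus 1 to 5. Pallens 6 and 7 were low and the other pallens libraries, at 4.37% to 5.27%, overlapped the quinquefasciatus values. Without pallens 6 and 7 the highest of the 10 libraries was only 1.41 times the lowest, the narrowest range of the 7 genes.

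The pair of larval serum protein 2 genes on supercont3.23 came next. CPIJ001820-RA took 0.340%, 2.65% and 2.92% of reads at the lowest, median and highest pallens library, against 3.64%, 1.82%, 3.18%, 3.10% and 2.21% in quinquefasciatus 1 to 5. CPIJ001822-RA took 0.400%, 2.13% and 2.63% in pallens, against 3.08%, 1.62%, 2.43%, 2.52% and 2.18% in quinquefasciatus 1 to 5. In both genes pallens 7 was the lowest library, quinquefasciatus 1 was the highest, and the subspecies overlapped.

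Arylphorin subunit alpha (CPIJ007783-RA), the other named arylphorin subunit, took 0.162%, 1.82% and 2.58% of reads at the lowest, median and highest pallens library, against 2.74%, 0.536%, 1.34%, 2.003% and 1.64% in quinquefasciatus 1 to 5. Quinquefasciatus 2 stood at the low end of its subspecies, below pallens 1 to 5. Hexamerin 2 beta (CPIJ009506-RA) took 0.197%, 1.29% and 2.27% in pallens, against 1.57%, 1.02%, 1.40%, 1.19% and 1.29% in quinquefasciatus. Here the quinquefasciatus libraries were close together, with the highest 1.54 times the lowest, and pallens had both the highest and the lowest values.

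The remaining members were far less abundant. Larval serum protein 2 CPIJ009032-RA took 0.0194%, 0.112% and 0.245% of reads at the lowest, median and highest pallens library, against 0.531%, 0.0321%, 0.287%, 0.347% and 0.127% in quinquefasciatus 1 to 5. By this share quinquefasciatus 1, 3 and 4 were above every pallens library, and quinquefasciatus 2 was below pallens 1 to 5. In TMM-normalized CPM, however, quinquefasciatus 3 (2647 CPM) was below pallens 1 (2868 CPM). Larval serum protein 1 beta chain (CPIJ006538-RA) took 0.00138%, 0.0151% and 0.0234% in pallens, against 0.0519%, 0.0119%, 0.0643%, 0.0432% and 0.00930% in quinquefasciatus 1 to 5. The same 3 quinquefasciatus libraries were above every pallens library, whereas quinquefasciatus 2 and 5 lay within the pallens range. The 59 reads of CPIJ006538-RA in pallens 7 were the fewest of any member in any library, with an exact 95% interval of 0.00105% to 0.00177% of reads.

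Per unit length, in RPKM as deposited, places 1, 6 and 7 in the order of the genes were fixed, and places 2 to 5 were not. Arylphorin C223 held place 1 in 12 of 12 libraries, with a median of 21695 RPKM in pallens and 18648 RPKM in quinquefasciatus. CPIJ001820-RA held place 2 in 9 libraries and CPIJ001822-RA held it in the other 3, which were pallens 6, pallens 7 and quinquefasciatus 5. Arylphorin alpha held place 4 in 6 libraries and place 5 in 6, and hexamerin 2 beta held place 3 in 1, place 4 in 5 and place 5 in 6, so the order of these neighbours changed from library to library. CPIJ009032-RA held place 6 and CPIJ006538-RA place 7 in 12 of 12. The last place comes with a limit, since the RPKM of CPIJ006538-RA is divided by a length of 2117 bases of which at most 14.27% was covered by reads.

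The comparison of the subspecies asked whether storage gene transcripts differed between pallens and quinquefasciatus larvae. With edgeR's quasi-likelihood test and p-values adjusted by Benjamini-Hochberg over 10617 genes, 0 of the 7 passed an adjusted p under 0.05, where 0.537% of all tested genes did (0.339% higher and 0.198% lower in pallens). At an unadjusted p under 0.05 the count was also 0 of 7, against 13.0% of all tested genes. DESeq2 called 0 of 7 (2.78% of all tested genes) and had 1 of 7 at an unadjusted p under 0.05 (14.5%), limma-voom called 0 and had 0 (0.867% and 13.7%), and limma on log2(RPKM + 1) called 0 and had 0 (1.11% and 12.2%). The libraries of the subspecies overlapped in 7 of 7, whereas 1.22% of all tested genes did not overlap. All 7 log2 changes of pallens over quinquefasciatus were negative, with a median of -0.40 beside 0.02 for all tested genes. That common sign depended on single libraries: 2 of the 7 were positive without pallens 6, without pallens 7 or without quinquefasciatus 5, and 1 was positive without pallens 1. With pallens 6 and 7 both left out, 4 were negative and 3 positive, the median was -0.01, 0 passed (0.0486% of all tested genes did) and 0 were at an unadjusted p under 0.05 (11.2%).

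The log2 changes furthest from 0 belonged to the least abundant members. CPIJ006538-RA averaged 134 ± 96.5 CPM in pallens (SD, n = 7), against 359 ± 230.0 CPM in quinquefasciatus (SD, n = 5), in TMM-normalized CPM. Its log2 change was -1.42 (SE 0.69, edgeR adjusted p = 0.403). CPIJ009032-RA averaged 1126 ± 912 CPM in pallens, against 2687 ± 1890 CPM in quinquefasciatus, and its log2 change was -1.25 (SE 0.70, edgeR adjusted p = 0.455). With pallens 1 and quinquefasciatus 5 both left out, a choice made after the values were seen, the log2 changes were -1.92 and -1.84, and neither passed (edgeR adjusted p = 0.197 and 0.218). In that fit 0 of the 7 were called, beside 3.40% of all tested genes, and these 2 were at an unadjusted p under 0.05, beside 18.3%. The 5 abundant genes had smaller log2 changes: -0.45 (SE 0.52) for CPIJ001820-RA, -0.40 (SE 0.46) for CPIJ001822-RA, -0.22 (SE 0.64) for arylphorin alpha, -0.06 (SE 0.56) for hexamerin 2 beta and -0.06 (SE 0.27) for arylphorin C223. Their edgeR adjusted p ran from 0.723 to 0.979. With standard errors of this size the test cannot show that the subspecies are alike.

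**Figure D2:**
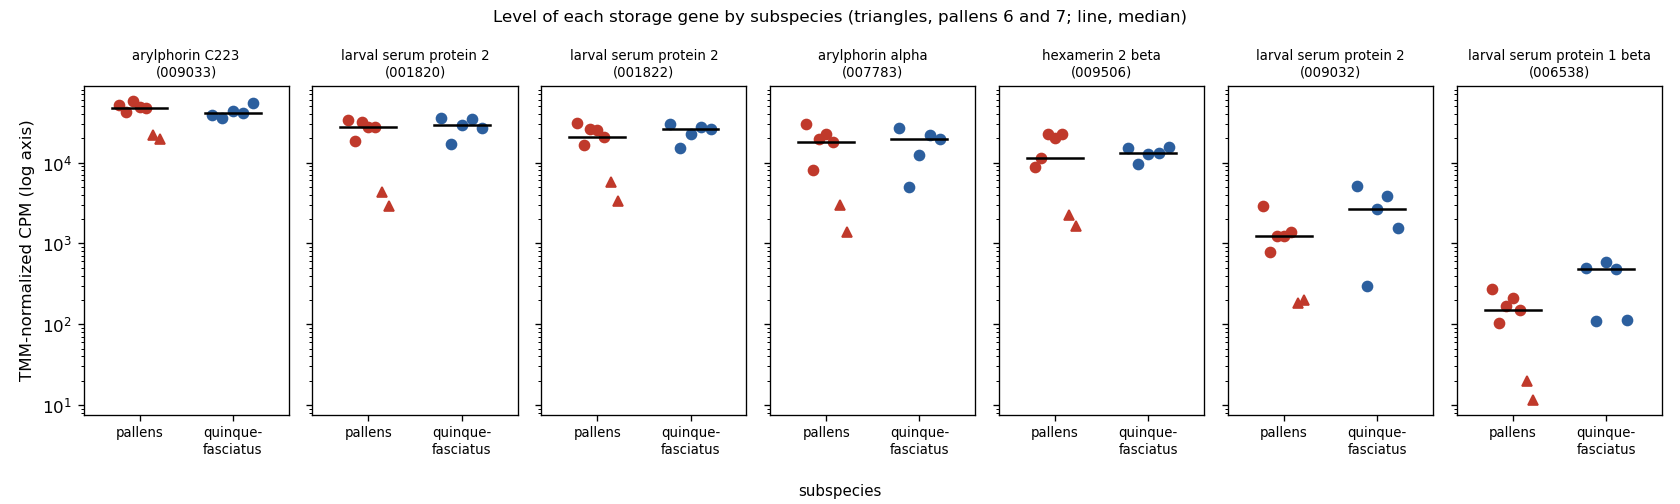
TMM-normalized CPM on a log axis for each of the 7 storage genes in pallens (left in each panel, n = 7) and quinquefasciatus (right, n = 5); each point is 1 library, triangles are pallens 6 and 7, and lines are medians. In each panel the triangles lie below the other pallens points, and the 2 subspecies overlap.

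Pallens 6 and pallens 7 were the 2 lowest of the 12 libraries in all 7 genes by share of reads. The gap was smallest for arylphorin C223: the median of the other 10 libraries, 4.62%, was 1.96 and 1.99 times the values of pallens 7 and pallens 6. For the other 6 genes that median was between 3.98 and 13.0 times the value in either library, with CPIJ006538-RA at 8.51 and 13.0 times. These libraries were not shallow, with 4.24 M and 4.29 M reads, and they had the largest numbers of gene models read, 15351 and 15467. Their summed level of 8 fat body marker genes (lipophorins and transferrins, none unread in any library) was 4067 and 3070 CPM, within the 2045 to 6054 CPM of pallens 1 to 5. That sum was 2537 CPM in quinquefasciatus 2, and higher than in pallens 6 and 7 in the other quinquefasciatus libraries, at 5709 to 6763 CPM. Most of it came from apolipophorins precursor (CPIJ007204-RA), which was at 3369 and 2586 CPM in pallens 6 and 7. Their summed level of 104 gene models described as trypsin or chymotrypsin, digestive enzymes of the gut, was 3748 and 4201 CPM, below the 4817 to 13281 CPM of pallens 1 to 5 and the 7885 to 16891 CPM of quinquefasciatus; 21 to 26 of these models were unread in a pallens library and 21 to 31 in a quinquefasciatus library. The part of these differences in the storage values was not tested.

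Quinquefasciatus 2 had the lowest storage share of its subspecies. Its summed fat body markers were also the lowest there, at 2537 CPM against 5709 to 6763 CPM in the other 4, and its summed cuticle protein genes were the highest, at 16967 CPM against 2166 to 5984 CPM. In TMM-normalized CPM all 7 genes were at their quinquefasciatus minimum in it, with CPIJ006538-RA at 110.9 CPM, close to the 111.7 CPM of quinquefasciatus 5. By share of reads 5 of the 7 were, and arylphorin C223 was lowest in quinquefasciatus 4 and CPIJ006538-RA in quinquefasciatus 5. Whether these values have a part in the storage levels was not tested.

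How far a gene varied between pools of one subspecies differed widely within the family. On the log2(CPM + 1) scale the SD within a subspecies was 0.50 for arylphorin C223 and 0.99 to 1.55 for the other 6, and its median over all tested genes was 0.41. Over all 12 libraries 66.2% of all tested genes did not exceed the SD of arylphorin C223. Without pallens 6 and 7 its SD was 0.20, which 7.21% did not exceed, so only there was this gene among the steadier ones. Its neighbour CPIJ009032-RA kept an SD of 1.24, at the 96.7th percentile of all tested genes. The larval serum protein 2 pair on supercont3.23 had SDs of 0.38 and 0.37 without pallens 6 and 7, close to the median of 0.38 over all tested genes. These ranks are descriptions, over all tested genes whatever their level.

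Ratios of RPKM within a library show the same contrast without any scaling between libraries. CPIJ001820-RA over CPIJ001822-RA was 0.723 at the lowest and 1.25 at the highest in pallens, and 0.972 at the lowest and 1.25 at the highest in quinquefasciatus, a range of 1.73-fold over the 12 libraries. For the neighbours on supercont3.216, CPIJ009032-RA over CPIJ009033-RA was between 0.00829 and 0.0557 in pallens and between 0.00821 and 0.130 in quinquefasciatus, a range of 15.9-fold. Arylphorin alpha over arylphorin C223 was between 0.0655 and 0.560 in pallens and between 0.131 and 0.643 in quinquefasciatus. Hexamerin 2 beta over arylphorin C223 was between 0.0862 and 0.482 in pallens and between 0.273 and 0.401 in quinquefasciatus. The pair on supercont3.23 thus kept a ratio of 0.972 to 1.25 outside pallens 6 and 7, where it was 0.723 and 0.813. The pair on supercont3.216 did not keep a near constant ratio.

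**Figure D3:**
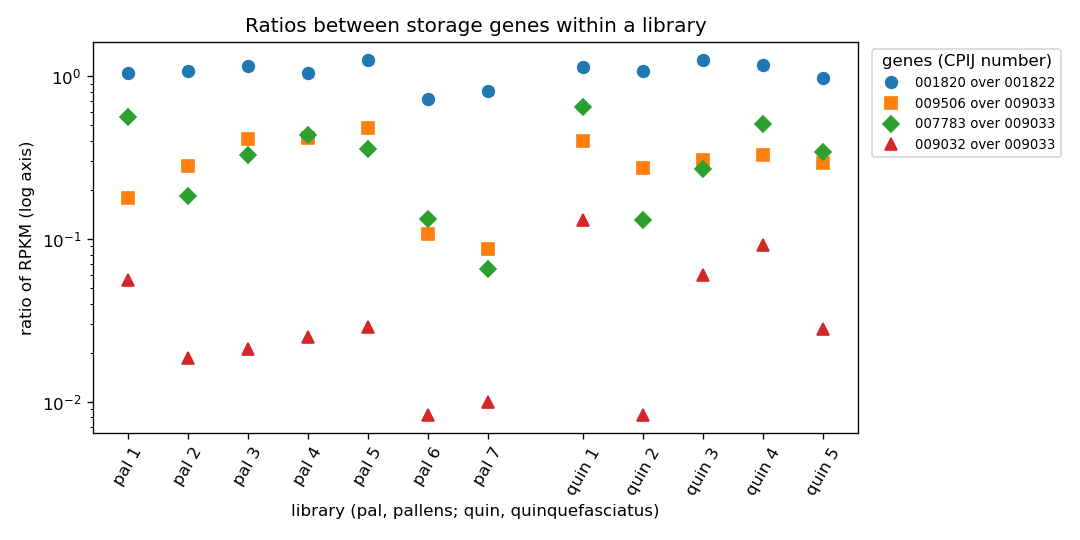
Ratio of RPKM between storage genes within each library, on a log axis, for pallens (left) and quinquefasciatus (right); each marker is 1 library. Circles (CPIJ001820-RA over CPIJ001822-RA) stay between 0.723 and 1.25, while triangles (CPIJ009032-RA over CPIJ009033-RA) run from 0.00821 to 0.130.

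Whether the genes varied together was asked of all 21 pairs, with Pearson's r and Spearman's rho of log2(CPM + 1) and permutation tests adjusted over the 21 pairs. Over 12 libraries 21 of 21 pairs passed by Pearson's r and 11 of 21 by Spearman's rho, and with each subspecies mean subtracted 21 and 18 passed. However, pallens 6 and 7 were the 2 libraries farthest from the median in every pair and sit apart from the rest, so r is given over the other 10 libraries. There, 8 of 21 pairs passed by r and 7 of 21 by rho, and r was positive in 19 with a median of 0.50. All 8 pairs lay among 5 genes, the 3 larval serum protein 2 genes, arylphorin alpha and larval serum protein 1 beta chain. The pairs among them that did not pass by r were both of larval serum protein 1 beta chain, whose coverage was narrow. These were with CPIJ001822-RA (r = 0.58, permutation test adjusted p = 0.180) and arylphorin alpha (r = 0.47, permutation test adjusted p = 0.282). Its pair with CPIJ001820-RA passed at r = 0.72 (permutation test adjusted p = 0.0442). With each subspecies mean subtracted, 8 passed over the 10 libraries by r and 8 by rho.

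The closest pair was CPIJ001822-RA with arylphorin alpha, which lie on different scaffolds (r = 0.96, permutation p = 8.00e-05, adjusted p = 0.00168; rho = 0.92, permutation p = 0.000710, adjusted p = 0.0149; n = 10). The supercont3.23 pair followed (r = 0.94, permutation p = 0.000300, adjusted p = 0.00210; rho = 0.88, permutation p = 0.00165, adjusted p = 0.0173; n = 10). CPIJ009032-RA went with CPIJ001820-RA (r = 0.90, permutation p = 0.000170, adjusted p = 0.00178; rho = 0.83, permutation p = 0.00411, adjusted p = 0.0216; n = 10) and not detectably with its own neighbour CPIJ009033-RA (r = 0.12, permutation p = 0.744, adjusted p = 0.822; rho = -0.07, permutation p = 0.866, adjusted p = 0.963; n = 10).

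Of the 11 pairs with arylphorin C223 or hexamerin 2 beta, 0 passed over the 10 libraries by Pearson's r or by Spearman's rho, with r from -0.23 to 0.55 and a median of 0.32. Among the 10 pairs of the other 5 genes r ran from 0.47 to 0.96, with a median of 0.83, so the ranges overlapped. The difference between these sets of pairs was not tested, and the sets were drawn after the values were seen. Between the pair of them r was 0.50 (permutation p = 0.140, adjusted p = 0.268; rho = 0.48, permutation p = 0.167, adjusted p = 0.319; n = 10). As a description of the background, the median r of CPIJ001820-RA with the other 6 members was 0.81 over the 10 libraries, a value that 0.886% of 10610 other tested genes reached with it. For CPIJ009032-RA it was 0.81, also reached by 0.886%, for CPIJ001822-RA 0.71, reached by 5.60%, for arylphorin alpha 0.68, reached by 5.81%, and for CPIJ006538-RA 0.53, reached by 10.5%. For arylphorin C223 the median was 0.44, reached by 13.5%, and for hexamerin 2 beta it was 0.27, reached by 18.6%.

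**Figure D4:**
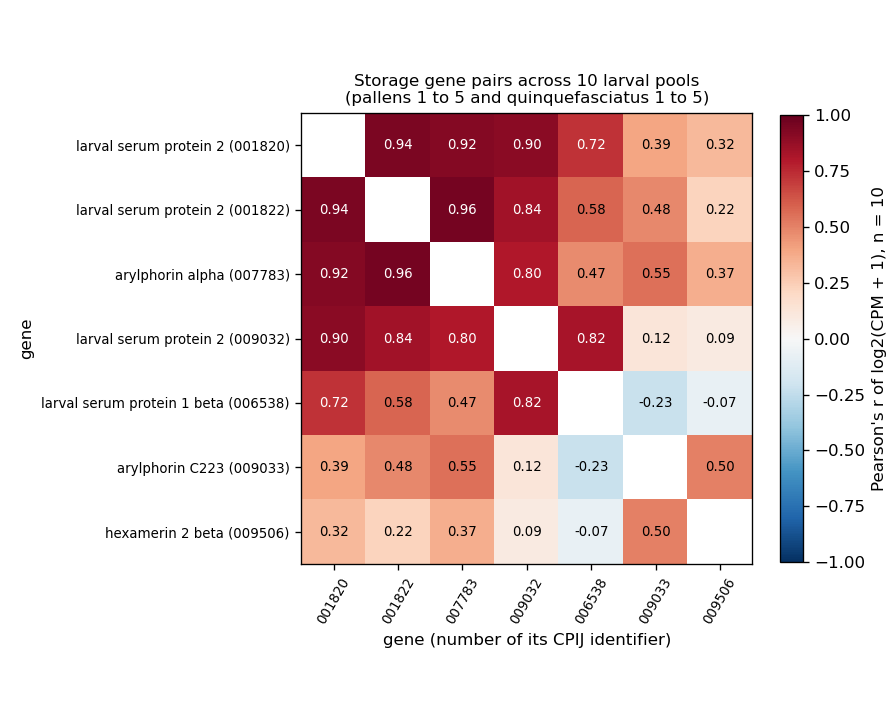
Pearson's r of log2(CPM + 1) for each pair of the 7 storage genes over 10 libraries, pallens 1 to 5 and quinquefasciatus 1 to 5; rows and columns are genes and colour is r. The block of larval serum protein 2 genes and arylphorin alpha at the top left holds r of 0.80 to 0.96, and the rows of arylphorin C223 and hexamerin 2 beta hold -0.23 to 0.55.

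Reads covered 97.12% or more of 6 of the 7 gene models in each library, but only a small part of larval serum protein 1 beta chain CPIJ006538-RA. Its coverage was 10.63% at the lowest, 11.24% at the median and 11.43% at the highest in pallens, against 14.27%, 13.65%, 14.27%, 13.89% and 10.91% in quinquefasciatus 1 to 5. This is 225 to 242 of 2117 bases in pallens, 289 to 302 bases in quinquefasciatus 1 to 4 and 231 bases in quinquefasciatus 5. The 4 wide libraries were apart from the others whatever their read number: quinquefasciatus 2 covered 289 bases with 526 reads, and pallens 1 covered 240 bases with 1051 reads. Quinquefasciatus 5, with 426 reads, lay within the pallens range.

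**Figure D5:**
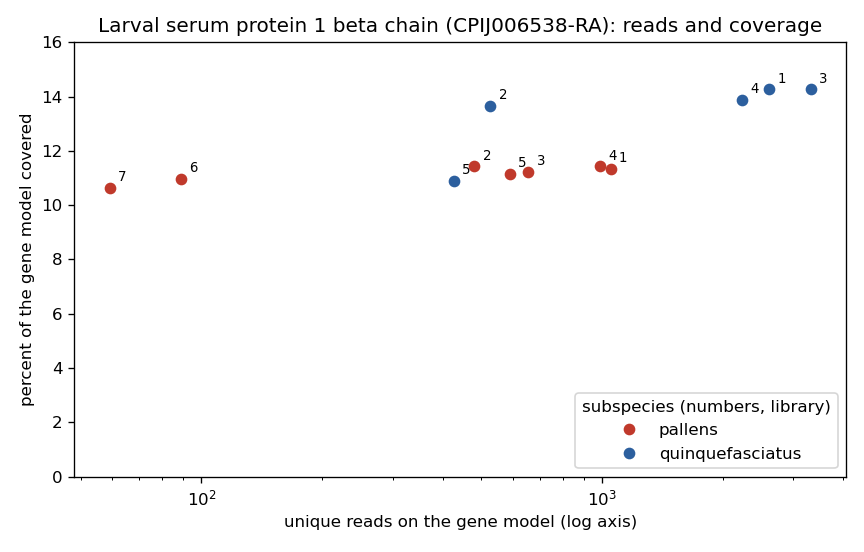
Percent of the CPIJ006538-RA gene model covered by reads (vertical axis) against its unique reads on a log axis (horizontal axis), 1 point per library with its number, pallens and quinquefasciatus in different colours. Quinquefasciatus 1 to 4 lie at 13.65% to 14.27%, and quinquefasciatus 5 lies with the 7 pallens libraries at 10.63% to 11.43%.

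Similar narrow coverage was seen in 3 more models described as larval serum protein 1 beta chain, which are not among the 7. CPIJ006537-RA, which lies 1354 bases from CPIJ006538-RA on the opposite strand, was covered over 4.42% to 8.02% in pallens and 4.56% to 10.23% in quinquefasciatus. CPIJ018824-RA and CPIJ018825-RA, 1358 bases apart on supercont3.1322, were covered over 18.40% to 26.66% and 14.90% to 19.28% in pallens, and over 21.13% to 28.43% and 13.99% to 17.12% in quinquefasciatus. The counts are of uniquely mapped reads, and whether reads shared between these models have a part in the narrow coverage was not tested, so the levels of all 4 are uncertain. When the reads of the 4 models were summed, a choice made after their coverage was seen, the log2 change was -0.62 (SE 0.73, edgeR adjusted p = 0.733), in place of -1.42 for CPIJ006538-RA alone.

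The fifth larval serum protein 1 beta chain model, CPIJ000056-RA, was covered over at least 99.80% and was abundant. Its mean was 5701 ± 3071 CPM in pallens (SD, n = 7), against 9058 ± 3411 CPM in quinquefasciatus (SD, n = 5), and it was not called (log2 change -0.67, SE 0.41, edgeR adjusted p = 0.497). A second and shorter hexamerin 2 beta model, CPIJ004282-RA of 915 bases on supercont3.65, had 24.7 CPM at the lowest, 105 CPM at the median and 661 CPM at the highest in pallens. In quinquefasciatus it was between 1.49 and 7.07 CPM in 4 libraries, from 7 to 37 reads, and quinquefasciatus 5 had 281 CPM. Reads covered 28.63% to 54.97% of this model in pallens and 24.81% to 52.13% in quinquefasciatus, so its level is uncertain too. Its log2 change was 1.81 (SE 1.27, edgeR adjusted p = 0.547) over all 12 libraries and 5.63 (SE 1.03, edgeR adjusted p = 0.0140) without quinquefasciatus 5. That library had the highest quinquefasciatus level, and the fit was picked after the values were seen. The p-value of this fit is therefore no support for a difference. In it 209 of 10849 tested genes were called, beside 57 of 10617 over all 12 libraries.

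Among the genes whose pattern over the 12 libraries was most like the mean of the 7, taken from 2079 described genes of sufficient level, the first were 2 narrowly covered larval serum protein 1 beta chain models, CPIJ018825-RA (r = 0.97) and CPIJ018824-RA (r = 0.96). Next came general odorant-binding protein 99a (CPIJ017326-RA, r = 0.96), of a family of carriers of small lipophilic molecules. It was at 1612 and 724 CPM in pallens 6 and 7 and at 2786 to 6702 CPM in the other 10 libraries. A sugar transporter (CPIJ012676-RA), bacteria responsive protein 1 (CPIJ002603-RA) and the delta subunit of the translocon-associated protein (CPIJ002043-RA), part of the machinery that moves secreted proteins into the endoplasmic reticulum, each had r = 0.94. Over the 10 libraries without pallens 6 and 7, r of these 6 genes ran from 0.78 to 0.94, and CPIJ002043-RA was the highest. The most opposite patterns were those of the mitochondrial DNA-directed RNA polymerase (CPIJ000972-RA, r = -0.98), a subunit of translation initiation factor 3 (CPIJ009242-RA, r = -0.97) and vacuolar protein sorting protein 4A (CPIJ019476-RA, r = -0.97). These r describe the most extreme of many genes, over libraries of which 2 stand apart, and carry no test.

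Lists of related genes gave 0 calls in the edgeR test over all genes, beside 0.537% of all tested genes, and their counts at an unadjusted p under 0.05 stand beside 13.0% of all tested genes. A lack of calls does not show that the lists were alike in the subspecies. Of the 5 storage models above together with genes that have phenoloxidase in their description (the enzyme of melanization, which belongs to the same superfamily, and proteins that activate or inhibit it), 13 of 17 were tested and 0 called; 6 log2 changes were positive and 7 negative, with a median log2 change of -0.01 and 1 at an unadjusted p under 0.05. Of 13 tested genes described as lipophorin, transferrin or vitellogenin, or by the fat body, 0 were called, 4 log2 changes were positive and 9 negative, the median was -0.34 and 2 were at an unadjusted p under 0.05. The most abundant of them was apolipophorins precursor (CPIJ007204-RA), the lipid carrier of the haemolymph, at 3097 ± 938 CPM in pallens, against 4566 ± 1581 CPM in quinquefasciatus (edgeR adjusted p = 0.421). Apolipophorin-III (CPIJ007775-RA) averaged 465 ± 337 CPM in pallens, against 552 ± 317 CPM in quinquefasciatus.

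Ecdysone and juvenile hormone time the larval moults and metamorphosis. Of 32 tested genes of these hormones 0 were called, 12 log2 changes were positive and 20 negative, the median log2 change was -0.14 and 4 were at an unadjusted p under 0.05. Juvenile hormone epoxide hydrolase 1 (CPIJ000994-RA), which degrades juvenile hormone, averaged 172 ± 110 CPM in pallens, against 274 ± 77.1 CPM in quinquefasciatus (edgeR adjusted p = 0.435). It was at 129 and 115 CPM in pallens 6 and 7, inside its pallens range of 87.6 to 411 CPM. Ecdysone-induced protein 75b (CPIJ007963-RA), a nuclear receptor, averaged 132 ± 68.3 CPM in pallens, against 118 ± 51.2 CPM in quinquefasciatus, and was at 68.0 and 57.1 CPM in pallens 6 and 7. The summed level of the list in pallens 6 and 7 was 577 and 538 CPM, below the other 10 libraries at 929 to 1913 CPM.

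Storage proteins are secreted, and of 20 tested genes for entry into the endoplasmic reticulum 0 were called, with 3 log2 changes positive and 17 negative, a median of -0.07 and 1 at an unadjusted p under 0.05. The alpha subunit of the Sec61 channel (CPIJ002966-RA) averaged 266 ± 104 CPM in pallens, against 273 ± 82.0 CPM in quinquefasciatus. The beta subunit of the translocon-associated protein (CPIJ005682-RA) averaged 252 ± 55.4 CPM in pallens, against 249 ± 25.0 CPM in quinquefasciatus. The summed list was at 1616 and 1565 CPM in pallens 6 and 7, at 2018 to 2936 CPM in pallens 1 to 5, and at 1501 CPM in quinquefasciatus 2.

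Cuticle proteins are made in bursts around each moult, and their levels differed widely between pools. Of 75 tested cuticle genes 0 were called and 10 were at an unadjusted p under 0.05. Their log2 changes were positive in 60 and negative in 15, with a median of 1.24 beside 0.02 for all tested genes. Their summed level was between 2793 and 33822 CPM in pallens and between 2166 and 16967 CPM in quinquefasciatus, and pallens 6 and 7, at 5431 and 4030 CPM, were within both ranges. The high pallens sums were those of pallens 2, 3 and 5, at 33822, 19804 and 29576 CPM. Pallens 1 and 4 were at 2793 and 3344 CPM, inside the 2166 to 5984 CPM of quinquefasciatus 1, 3, 4 and 5. Pupal cuticle genes (25 tested, 0 called, 6 at an unadjusted p under 0.05, 23 positive and 2 negative, median 1.68) included pupal cuticle protein 78E (CPIJ012466-RA), which lay between 74.4 and 8753 CPM in pallens and between 98.1 and 4166 CPM in quinquefasciatus, and CPIJ001078-RA at 434 ± 268 CPM in pallens, against 533 ± 78.6 CPM in quinquefasciatus. A cuticle protein gene, CPIJ001840-RA, was at 2014 ± 2217 CPM in pallens, against 753 ± 1419 CPM in quinquefasciatus. Genes named for the larval cuticle were read in every library, at summed levels of 25.2 to 2540 CPM in pallens and 7.08 to 905 CPM in quinquefasciatus, with 2 to 5 of the 11 models unread in a library of either subspecies. Summed muscle markers were between 23443 and 59854 CPM in pallens and between 30424 and 66932 CPM in quinquefasciatus, with pallens 6 and 7 at 38810 and 24240 CPM.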

How the data were processed

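Poly(A) RNA of 12 pools of 30 larvae was sequenced without strand information, per the labels' protocols. Per the file headers, each table deposited by the authors lists unique read counts by gene model, the model's length, an RPKM value and its coverage in percent. The sources used here do not name aligner, counter or build. Models missing from a library's table were set to 0 reads.

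Counts of all gene models were tested with edgeR 4.0.16 in R 4.3.3 (TMM, filterByExpr, robust quasi-likelihood test, pallens minus quinquefasciatus, Benjamini-Hochberg adjustment, threshold 0.05). The biological coefficient of variation was 42.0%. An SE is the log2 change divided by the square root of F. Pairs were correlated as log2(CPM + 1) and tested with 100000 permutations, two-sided. SDs and ratios have no test. The fit was tested on simulated data. Alternatives used DESeq2 1.42.0, limma 3.58.1, other normalizations and filters, and left-out libraries.

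Members and lists were chosen with earlier results of these data known; lists follow words in the descriptions. Named genes are the members, the 2 most abundant tested genes per list, any called gene, and the 6 most alike and 3 most opposite patterns (mean log2 CPM of at least 5). The other 4 related models were named after their values were seen. Replicate numbers follow accession order and pair no libraries. No sequences are shown, because the reference table used here carries none and has 0 entries with these identifiers.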

Additional observations from a re-analysis of the deposited data

Results flagged for a closer look

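Of 70 sets of values per subspecies (levels and coverage of the 7 members and 5 related models, their joint share, and summed lists), 11 had a library set apart from the rest of its subspecies by Dixon's criterion, which chance meets in about 1 of 20. The shorter hexamerin 2 beta model CPIJ004282-RA was at 281 CPM in quinquefasciatus 5, with the other 4 at 1.49 to 7.07 CPM. Quinquefasciatus 5 was also apart in coverage of CPIJ006538-RA, at 10.91% against 13.65% to 14.27% in the other 4. Quinquefasciatus 2 was apart in 4 summed lists: fat body haemolymph proteins at 2614 CPM (others 5895 to 6916), the fat body markers within that list at 2537 CPM, cuticle proteins at 16967 CPM, and larval cuticle markers at 905 CPM (others 7.08 to 185). Pallens 1 was apart in the summed ecdysone and juvenile hormone list, at 1913 CPM against 538 to 1071 CPM. The other 4 concern coverage that was nearly complete: CPIJ009033-RA at 99.95% in pallens 1 and at 99.95% in quinquefasciatus 1 (others 99.91%), and CPIJ000056-RA at 99.80% in pallens 5 and 99.95% in quinquefasciatus 4. Pallens 6 and 7 are not among these because each is the nearest neighbour of the other.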

How the results depend on the processing

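The count of 0 of 7 members called was the same under each of 25 alternatives: other normalizations, filters, tools and thresholds, each library left out, and the 3 alternatives chosen after the data were seen. All 7 log2 changes stayed negative under the other normalizations, filters and tools. With 1 library left out, the log2 change of CPIJ009033-RA ran from -0.15 to 0.067 and that of CPIJ009506-RA from -0.26 to 0.14. With pallens 6 and 7 both left out, a choice made after the data were seen, CPIJ009033-RA was at 0.21, CPIJ007783-RA at 0.21 and CPIJ009506-RA at 0.37. With pallens 1 and quinquefasciatus 5 both left out CPIJ009506-RA was at 0.078. Without pallens 6 and 7, 8 pairs passed in place of 21, and the median SD of the members was 0.48 in place of 1.23; with 1 library left out these ran from 17 to 21 pairs and from 0.97 to 1.30. The difference in joint share ran from -2.86 to -0.74 percentage points with 1 library left out and was 0.83 with pallens 6 and 7 both left out. Calls among the related lists, 0 over all 12 libraries, were 3 with DESeq2, 3 with pallens 1 and quinquefasciatus 5 both left out, and 0 to 4 with 1 library left out (4 without pallens 1, 1 without quinquefasciatus 5). In the same fits calls over all tested genes numbered 295, 366, 230 and 209, in that order, beside 57 in the main fit. The list counts are therefore no result about the lists. The cause of these shifts was not tested. Genes called over all 10617 numbered 57 in edgeR, 295 in DESeq2, 92 in limma-voom and 118 in limma on log2 RPKM; with 1 library left out they were between 9 and 230, the highest being without pallens 1 (230) and quinquefasciatus 5 (209), and without pallens 6 and 7 there were 5. No paired analysis was possible because the labels give no replicate numbers that tie libraries of the subspecies to each other. Depth limits the least abundant member, with 59 to 3321 reads per library.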
